A study of Mus musculus with 3 samples.

Results

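The interferon-stimulated genes Isg15, Ifit1, Ifit2, Ifit3, Irf7, Irf1, Bst2 and Ifitm3 were followed through the cells of the embryonic mouse stomach. They were chosen by symbol: the 8 rows carrying these names were found in all 3 libraries, among 46675 named genes in all. Single-cell libraries were made from glandular stomachs (hindstomachs) of embryos at embryonic day 18.5. The control carried Shh-Cre, a recombinase driven from the Shh gene, which is active in the stomach epithelium. The YAP5SA library carried Shh-Cre;YAP5SA, which makes an always-active mutant of YAP, a transcriptional co-activator of the Hippo pathway, in cells with Cre. The Yap knockout library carried Shh-Cre;YaploxP/loxP, in which Cre removes Yap. All 3 groups therefore carried Shh-Cre. Each was 1 library, from an unstated number of embryos, so genotypes could not be tested against each other and every interval covers counting error only.

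Interferons are secreted proteins that cells release when they sense foreign or misplaced nucleic acid, or, for interferon gamma, that lymphocytes release. Type I interferons bind the Ifnar1 and Ifnar2 receptor, and the kinases Jak1 and Tyk2 then activate transcription factors, Stat2 among them, which enter the nucleus with Irf9 and bind the interferon-stimulated response element. Interferon gamma binds Ifngr1 and Ifngr2 and acts through Jak1 and Jak2 on factors that bind the gamma-activated site. Irf7 is the transcription factor that amplifies type I interferon production. Irf1 is a transcription factor of the gamma response and also responds to other inflammatory signals. Isg15 is a ubiquitin-like protein joined to other proteins, Ifit1, Ifit2 and Ifit3 bind viral RNA or each other, Bst2 (tetherin) holds budding virus at the cell surface, and Ifitm3 blocks the fusion of virus with endosomes.

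The promoter sequences show which of these elements each gene carries near its start. Windows of 300 bases (250 before to 50 after the start) came from RefSeq, GRCm38.p6, and all 8 genes matched. The core of the interferon-stimulated response element was searched as GAAANNGAAA on both strands, and 3.44% of the 32851 windows held it. The gamma-activated site was searched as TTCNNNGAA on both strands, and 8.30% of the windows held it. The response element core was found for 5 of the 8 genes and the gamma-activated site for 4. The sequences below are 5′ to 3′ on the strand of the gene. Capitals mark only the matches of the element named for each sequence. The gamma-activated sites of Bst2 and Ifitm3 also lie in the printed stretches and are not marked. Whether the elements relate to the levels given below was not tested. The matches of Isg15 overlap, as do those of Bst2.
Isg15 (response element, chr4:156200856-156200915, minus strand): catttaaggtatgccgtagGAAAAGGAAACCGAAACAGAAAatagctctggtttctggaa
Ifit1 (response element, chr19:34640769-34640828, plus strand): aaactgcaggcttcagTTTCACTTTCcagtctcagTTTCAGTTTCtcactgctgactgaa
Ifit3 (response element, chr19:34583365-34583424, plus strand): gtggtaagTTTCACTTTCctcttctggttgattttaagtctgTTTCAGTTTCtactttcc
Bst2 (response element, chr8:71537565-71537624, minus strand): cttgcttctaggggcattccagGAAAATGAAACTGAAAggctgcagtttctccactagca
Ifitm3 (response element, chr7:141010715-141010744, minus strand): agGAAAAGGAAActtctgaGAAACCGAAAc
Irf1 (gamma-activated site, chr11:53769898-53769957, plus strand): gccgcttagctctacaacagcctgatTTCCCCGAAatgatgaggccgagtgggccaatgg
The matches of Ifitm3 lay just after its start, and those of Isg15, Ifit1, Ifit3, Bst2 and Irf1 before it. Irf1 held a gamma-activated site and no response element core in either of its windows. Ifit2 held a gamma-activated site in 1 of its windows, Bst2 and Ifitm3 held one beside the response element, and these letters were not found in the window of Irf7. A match is a description of the letters, not a measured site. In the order of genes on that assembly, Ifit2 and Ifit3 are neighbours of Ifit1bl1 and Ifit3b, and Ifit1bl1 overlaps Ifit1. Ifitm3 lies between Ifitm1 and Ifitm6. Reads may have been split between relatives of like sequence, but their sequences were not compared and this was not tested.

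The libraries held 7692 control, 9439 YAP5SA and 5739 Yap knockout cells with 40857358 to 65843658 unique molecular identifiers (UMIs), and 6959, 8518 and 4890 cells were kept. Cells were classed by marker genes, and a class name such as epithelial means epithelial-like. Levels are CPM, the UMIs of a gene per 1000000 UMIs of the summed cells. Yap1 in epithelial cells was at 51.7 CPM in control, 54.8 in YAP5SA and 21.9 in Yap knockout, but UMIs tag the 3′ end and the deleted part is not given in the labels, so Yap1 does not check the deletion. The YAP target Ankrd1 was at 0 of 2164930 UMIs in control epithelium, which allows up to 1.39 CPM, at 125 CPM in YAP5SA and at 0.334 CPM in Yap knockout. Some classes held different clusters in the genotypes. YAP5SA epithelium lay in clusters led by Clic3 and Wfdc2, by Ankrd1 and Mmp7, and by Krt13 and Krt15, whereas control epithelium lay in clusters led by Pgc and Tff2 and by Gkn1 and Tff1, which also held 66.2% and 24.3% of the Yap knockout epithelium. YAP5SA fibroblasts lay in clusters led by Tac2 and C4b and by Notum and Apcdd1, and control fibroblasts in clusters led by Dpt and Spon2 and by Clec3b and Agtr2.

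In control, macrophages and endothelial cells held the most of these transcripts, except for Irf1 and Ifit2. Isg15 was at 423 CPM in control macrophages (312 cells) and 276 CPM in endothelial cells (176 cells). Erythroid cells followed at 181 CPM (321 cells), with fibroblasts at 27.3 CPM (3160 cells) and epithelial cells at 9.24 CPM (323 cells). In YAP5SA, Isg15 in endothelial cells at 197 CPM lay below neutrophils (236 CPM), erythroid cells (216 CPM), pericytes and monocyte or dendritic cells (200 CPM each). Irf7 in control macrophages, endothelial cells, fibroblasts and epithelial cells followed the same order as Isg15, at 146, 29.5, 11.0 and 9.24 CPM. Bst2 was at 742 CPM in control macrophages and 606 CPM in endothelial cells, followed by interstitial cells of Cajal, the pacemaker cells of the gut wall, at 160 CPM. Ifitm3 was the most abundant member in the other classes named here, with 1292 CPM in endothelial cells, 335 CPM in interstitial cells of Cajal, 299 CPM in fibroblasts and 220 CPM in epithelial cells of the control, while in macrophages it was at 702 CPM, below Bst2. UMIs tag 3′ ends, so these levels are per transcript end and not scaled by length.

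Irf1 had another order. It was highest in control endothelial cells at 124 CPM, then in interstitial cells of Cajal at 95.8 CPM. Mesothelial cells were at 84.5 CPM, fibroblasts at 80.7 CPM, smooth muscle at 62.7 CPM and enteric glia at 62.3 CPM. Macrophages at 46.4 CPM and epithelial cells at 33.3 CPM followed. The intervals of endothelial cells and interstitial cells of Cajal overlapped, as did those of interstitial cells of Cajal and fibroblasts, of smooth muscle and enteric glia, and of enteric glia and macrophages. Macrophages, first for Isg15 and Irf7, were thus low for Irf1. Enteric neurons and erythroid cells were last at 23.8 and 14.1 CPM.

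Ifit1, Ifit2 and Ifit3 were rare. Over all kept cells Ifit1 was at 1.88 CPM in control, 2.74 in YAP5SA and 6.08 in Yap knockout, Ifit2 at 2.46, 3.15 and 3.71 CPM, and Ifit3 at 1.95, 2.62 and 1.94 CPM. The higher Ifit1 of the Yap knockout rested in part on few cells, with 71 of 223 UMIs in 5. Their highest control levels were 14.7 CPM for Ifit1 in endothelial cells, 7.47 CPM for Ifit2 in enteric glia (6 UMIs) and 17.1 CPM for Ifit3 in macrophages. Of the 3, only Ifit1 in Yap knockout endothelial cells reached the 20 CPM that counted as measured, so each of the counts below leaves most of the Ifit values out.

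Shares of cells with a UMI also set macrophages and endothelial cells above epithelial cells and enteric neurons, although the order within these pairs differed from that by CPM. After each cell was thinned to 2000 UMIs, Isg15 was seen in 45.0% of control macrophages and 42.1% of control endothelial cells, and in 3.59% of epithelial cells and 0.833% of enteric neurons. Unthinned shares were 62.8%, 65.9%, 5.26% and 5.51%, with median depths of 4982.5, 8417.5, 4314 and 8013 UMIs. No class is known to lack the gene, so the level of free RNA is not known. Neurons are given here as a class of low share. By CPM they were at 13.7, above smooth muscle at 11.6, epithelial cells at 9.24 and interstitial cells of Cajal at 3.38. Shallower cells were left out of the thinned shares: 54 of 312 control macrophages, 12 of 176 endothelial cells, 72 of 323 epithelial cells and 7 of 127 neurons.

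**Figure D1:**
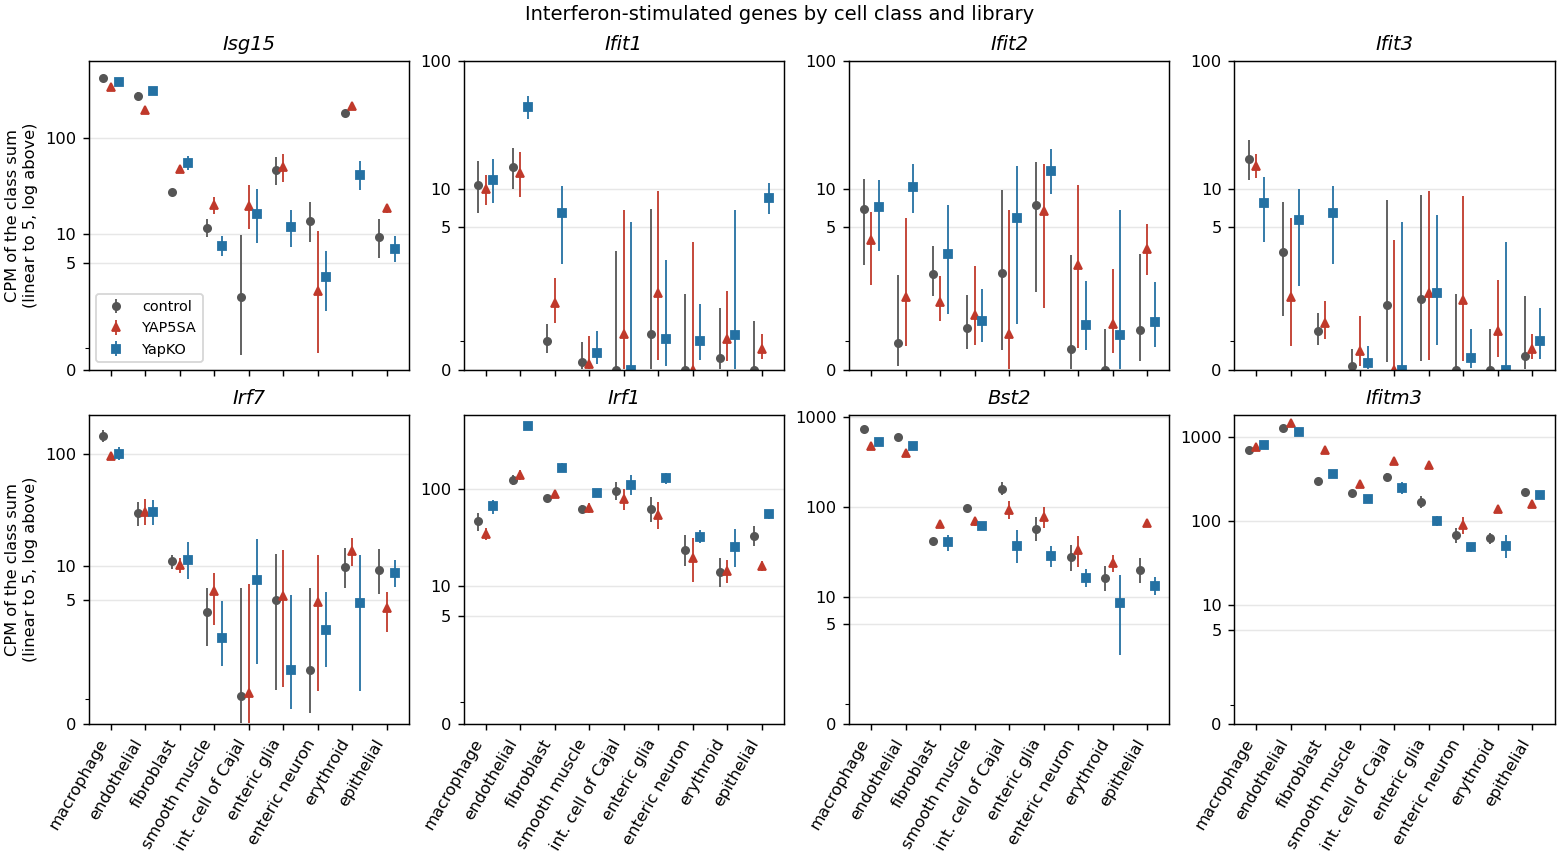
CPM of each gene (y axis, linear up to 5 CPM and logarithmic above) in 9 cell classes (x axis) of the control, YAP5SA and Yap knockout (YapKO) libraries; points are sums over the cells of a class in 1 library and bars are exact 95% Poisson intervals. Isg15, Irf7 and Bst2 are highest in macrophages and endothelial cells of the control, while Irf1 is highest in endothelial cells and reaches 443 CPM there in the Yap knockout.

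YAP5SA epithelium held more Bst2 and less Irf1 than control epithelium. Bst2 was at 19.9 CPM in control, 65.5 CPM in YAP5SA and 13.4 CPM in Yap knockout epithelium. YAP5SA was 3.30-fold higher than control (95% interval 2.43 to 4.58), and the Yap knockout lay below both. The level differed between the YAP5SA clusters: 154 CPM in the 376 cells of the Ankrd1 and Mmp7 cluster, 43.0 CPM in the keratin cluster and 37.3 CPM in the 1159 cells of the Clic3 and Wfdc2 cluster. Control cells had 20.0 CPM in the Pgc and Tff2 cluster and 37.2 CPM in the Gkn1 and Tff1 cluster. These cluster values cover all kept cells of a cluster, whatever their class. Outside the Ankrd1 and Mmp7 cluster, the YAP5SA values were close to that of the control Gkn1 and Tff1 cluster. Of its 379 control cells, however, 51 were of the epithelial class, 256 had no class and 52 were fibroblasts. Its value is thus not one of epithelial-class cells alone. Of the control epithelial class 79.9% lay in the Pgc and Tff2 cluster and 15.8% in the Gkn1 and Tff1 cluster. The thinned share of cells with Bst2 was 10.0% in YAP5SA and 6.37% in control (32.9% and 12.4% unthinned), with median depths of 6998 and 4314 UMIs, and 4.17% in control enteric neurons.

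Irf1 was at 33.3 CPM in control, 16.1 CPM in YAP5SA and 54.9 CPM in Yap knockout epithelium, so the 3 genotypes stood in the reverse order to that of Bst2. YAP5SA was 2.06-fold lower than control (1.57 to 2.68) and the Yap knockout 1.65-fold higher (1.28 to 2.16). Over cells of any class in the Pgc and Tff2 cluster, Irf1 was at 35.0 CPM (28.7 to 42.4) in control. It was at 45.4 CPM (39.6 to 51.7) in the Yap knockout there, so the intervals overlapped. In the Gkn1 and Tff1 cluster it was at 85.0 CPM (67.4 to 106) and 128 CPM (112 to 145). In the epithelial class Irf7 was at 9.24, 4.67 and 8.68 CPM, 1.98-fold lower in YAP5SA (1.15 to 3.26). Isg15 was at 9.24, 18.5 and 7.01 CPM, 2.0-fold higher in YAP5SA (1.27 to 3.32), but its thinned shares were 3.59% and 2.98%, against that direction. Ifitm3 was at 220, 157 and 202 CPM, 1.40-fold lower in YAP5SA (1.27 to 1.55). Over all kept cells Irf1 was at 68.5, 53.2 and 106 CPM and Isg15 at 62.8, 87.0 and 65.7 CPM. Ifitm3 was at 337, 504 and 338 CPM there, so each lay above its epithelial level. Free RNA of other cells may add to the epithelial values, and the levels and ratios here are without its subtraction.

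Of the 8 genes, 3 reached 20 CPM in control or YAP5SA epithelium, 1 of them 2-fold or more higher and 1 lower. The higher gene, Bst2, was measured only through YAP5SA, and the lower gene, Irf1, only through control. Over all 7225 genes measured there, 12.7% were at least 2-fold higher and 8.37% at least 2-fold lower, so neither count stands apart. With 5 CPM added to each level, the median log2 ratio was 0.13 for all 8 and 0.13 for all genes measured. It was -0.477 over the 3 measured members, -0.268 with classes taken from clusters and 0.00 with free RNA subtracted, so it has no steady direction. In the Yap knockout, 2 members were measured and 0 passed 2-fold, with 2.89% of 6784 genes higher and 3.54% lower. Their median was 0.00 and that of all genes 0.00.

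Ifit1 in epithelium was listed at 0 UMIs in control, which allows up to 1.39 CPM, and was at 0.709 CPM in YAP5SA and 8.52 CPM in the Yap knockout. The Yap knockout was therefore at least 6.15-fold higher, taking 3 UMIs over the control class, and the exact interval of the ratio began at 4.82. Of its 51 UMIs there, 39 lay in 5 cells, so few cells carry this value. A cluster led by Apoa4 and Apoc3, apolipoproteins of the intestine, held 15 Yap knockout and 4 control cells of the epithelial class, and its 51 kept Yap knockout cells of any class held 56 Ifit1 UMIs (103 CPM) and Irf7 at 81.0 CPM. The 172 Yap knockout epithelial cells typed as neck or chief cells held 0 Ifit1 UMIs. Ifit2 was at 1.39, 4.26 and 1.67 CPM and Ifit3 at 0.462, 0.709 and 1.00 CPM, all below 5 CPM.

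The close relatives of Ifitm3 were lower in YAP5SA epithelium by more than Ifitm3. Ifitm1 was at 329 CPM in control and 61.7 CPM in YAP5SA epithelium, 5.33-fold lower (4.84 to 5.87), and Ifitm2 at 931 and 475 CPM, 1.96-fold lower (1.87 to 2.06). Among other antiviral effectors, 10 of 35 were measured there with 3 lower and 0 higher, among them Oasl1, a relative of the 2′-5′ oligoadenylate synthetases, at 24.9 CPM in control and 3.84 CPM in YAP5SA, and Lgals3bp, a secreted glycoprotein, at 89.1 and 25.2 CPM. Their median log2 ratio over the listed genes was 0.00, against 0.13 for all genes. Of the receptors, Ifnar2, measured only through YAP5SA, was 2.06-fold higher (1.499 to 2.92) and Ifngr1 2.23-fold higher (1.66 to 3.06) in YAP5SA epithelium. The kinase Jak2 was lower, at 34.2 CPM in control and 13.8 CPM in YAP5SA. Fibroblast markers summed to 7152 CPM in control, 3158 CPM in YAP5SA and 1033 CPM in Yap knockout epithelium, with 0 of 9 at 0 in each, and macrophage markers to 214, 406 and 161 CPM. Scaled on the fibroblast markers, 37.74%, 27.17% and 25.55% of the UMIs of the class were attributed to other cells. With that free RNA subtracted the median log2 ratio of the 8 members was 0.00 in YAP5SA and 0.101 in Yap knockout. The levels and ratios of single genes given here are without that subtraction. The part of the macrophage markers was not tested.

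YAP5SA fibroblasts held more Ifitm3, Isg15 and Bst2 than control fibroblasts. Ifitm3 was at 299 CPM in control, 704 CPM in YAP5SA and 359 CPM in Yap knockout fibroblasts, with YAP5SA 2.35-fold higher than control (2.28 to 2.43). Isg15 was at 27.3, 47.3 and 55.3 CPM, 1.73-fold higher in YAP5SA (1.54 to 1.95). Bst2 was at 41.7, 64.8 and 40.2 CPM, 1.56-fold higher in YAP5SA (1.41 to 1.71). YAP5SA stood above the other libraries for Ifitm3 and Bst2, and both genotypes stood above control for Isg15. Within the clusters that the libraries shared, Ifitm3 was also higher in YAP5SA: 403 CPM in 53 cells against 303 CPM in 1756 control cells of the Dpt and Spon2 cluster, and 553 CPM in 64 cells against 279 CPM in 1353 control cells of the Clec3b and Agtr2 cluster. Isg15 and Bst2 were higher within the second of these, at 86.5 against 31.7 CPM and 75.2 against 36.8 CPM. In the Dpt and Spon2 cluster Isg15 was at 19.5 CPM in YAP5SA and 22.9 CPM in control, and Bst2 at 45.5 CPM (18.3 to 93.8) and 40.7 CPM, so neither was clearly higher there. The thinned share of cells with Ifitm3 was 64.3% in YAP5SA and 38.0% in control (82.0% and 61.3% unthinned), at median depths of 5257 and 4708.5 UMIs, and 11.7% in control neurons.

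In YAP5SA fibroblasts 4 members were measured, 1 of them at least 2-fold higher and 0 lower, where 3.23% of 7178 genes were higher and 2.08% lower. All 8 had a median log2 ratio of 0.21, and all genes one of 0.00. Of the close paralogs 1 of 2 measured passed 2-fold: Ifitm1 was 2.20-fold higher (2.13 to 2.27), and Ifitm2 was at 1613 CPM in control and 1667 CPM in YAP5SA. Of 7 measured antiviral effectors 1 passed, Ly6e, a surface protein induced by interferon, 2.0-fold higher (1.89 to 2.12), and the median log2 ratio of the listed effectors was 0.13. The class I gene H2-K1 was 2.16-fold higher (1.90 to 2.45) and was the 1 of 8 measured genes of class I presentation past 2-fold. Among interferon-induced chemokines 2 of 3 measured were higher, with Ccl2, which draws monocytes, at 41.9 CPM in control and 127 CPM in YAP5SA, and Cxcl10, which draws T cells, at 40.4 and 83.4 CPM. Macrophage markers in the fibroblast class summed to 181 CPM in control, 361 in YAP5SA and 126 in Yap knockout, with 0 of 9 at 0, and their part was not tested.

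Ifitm3 was higher in YAP5SA in 8 of the 9 classes compared, and in 7 of these the interval excluded equality. In enteric glia, the support cells of the gut's nerve net, it was at 169 CPM in control, 467 CPM in YAP5SA and 99.7 CPM in Yap knockout, 2.75-fold higher in YAP5SA (2.25 to 3.38). In erythroid cells it was at 62.2, 140 and 50.0 CPM, where all genes measured had a median log2 ratio of 0.64 in YAP5SA and the erythroid markers summed to 691643 CPM in control and 547617 CPM in YAP5SA. In interstitial cells of Cajal it was at 335, 515 and 246 CPM and in smooth muscle at 216, 277 and 185 CPM. Epithelium, where YAP5SA was lower, was the exception. In macrophages the ratio was 1.09 (1.03 to 1.16) and turned when classes were taken from clusters (log2 ratio -0.084) or free RNA was subtracted (-0.022). Over all kept YAP5SA cells Ifitm3 was at 504 CPM and the fibroblast markers summed to 9261 CPM. These markers summed to 3754 CPM in erythroid cells, 4353 CPM in enteric glia and 3088 CPM in enteric neurons of YAP5SA. Free RNA was subtracted only in epithelial, fibroblast, macrophage and endothelial cells. Its part in Ifitm3 of the other classes was not tested.

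Macrophages in both genotypes held less Bst2 and Irf7 than control macrophages. Bst2 was at 742 CPM in control, 477 CPM in YAP5SA and 534 CPM in Yap knockout, 1.56-fold lower in YAP5SA (1.46 to 1.66) and with a ratio of 0.720 in the Yap knockout (0.666 to 0.779). Irf7 was at 146, 96.8 and 101 CPM, 1.51-fold lower (1.30 to 1.75) and 1.45-fold lower (1.21 to 1.74). Control stood highest for both genes. Isg15 was at 423, 339 and 385 CPM, and Ifit3 at 17.1, 15.2 and 7.72 CPM, 2.21-fold lower in the Yap knockout (1.19 to 4.25) on 17 UMIs. Irf1 went apart again at 46.4, 34.2 and 66.3 CPM, 1.36-fold lower in YAP5SA (1.04 to 1.76) and 1.43-fold higher in the Yap knockout (1.09 to 1.89).

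None of the 5 members measured in macrophages passed 2-fold in either comparison. Over all genes 2.93% of 6759 were higher and 2.74% lower in YAP5SA, and 1.92% of 6665 higher and 6.75% lower in the Yap knockout. Over the 8, the median log2 ratio was -0.32 in YAP5SA, against -0.01 for all genes, and -0.05 in the Yap knockout, against -0.12. The Yap knockout median was -0.334 without the 5 richest cells of each library, -0.266 with free RNA subtracted and -0.255 with classes taken from clusters. In the Yap knockout 2 of 26 measured antiviral effectors were lower, a share near that background, namely Oasl2 at 59.3 CPM in control and 23.6 CPM, and Ifi44 at 44.3 and 18.2 CPM. In YAP5SA 0 of 25 measured effectors passed 2-fold, 3 had a ratio over 1, and the median log2 ratio of those listed was -0.27. Of 5 chemokines measured in YAP5SA macrophages 2 were at least 2-fold lower, Ccl7 at 590 CPM in control and 215 CPM, and Ccl2 at 737 and 353 CPM. A cluster led by Pf4 and C1qa held 96.8% of the control macrophages, 67.1% of those of YAP5SA and 88.8% of those of the Yap knockout, and a cluster led by Arg1 and Lyz2 held 31.8% in YAP5SA. Within the Pf4 and C1qa cluster Bst2 was at 732 CPM in control, 561 CPM in YAP5SA and 539 CPM in Yap knockout, and in the Arg1 and Lyz2 cluster at 311 CPM in YAP5SA and 429 CPM in Yap knockout. Fibroblast markers in the macrophage class summed to 6833, 3182 and 877 CPM, with 0 of 9 at 0. Scaled on these markers, 36.2%, 32.2% and 23.6% of the UMIs of the class were attributed to other cells. With that free RNA subtracted the log2 ratios were -0.745 and -0.714 for Bst2 and -0.683 and -0.771 for Irf7 in YAP5SA and Yap knockout, so both genes stayed lower.

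**Figure D2:**
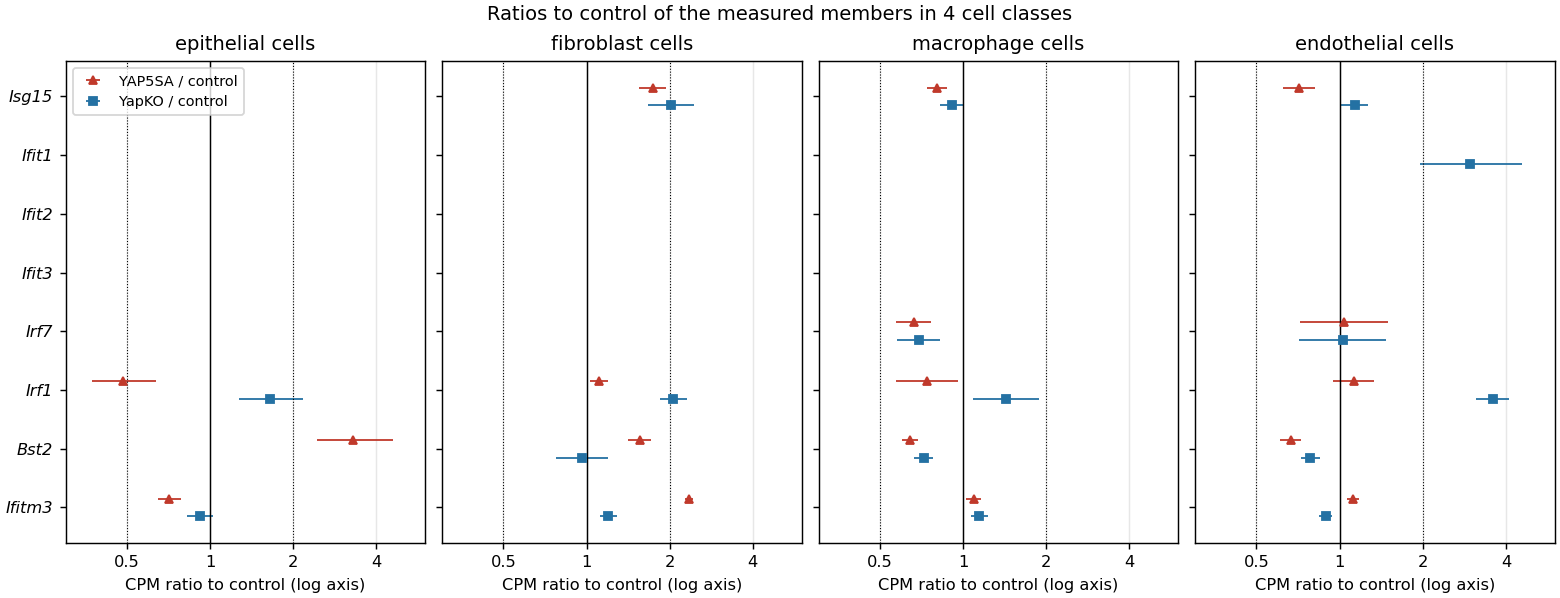
CPM ratio to control (x axis, logarithmic) of each gene (y axis) in 4 cell classes, for YAP5SA and Yap knockout (YapKO), with exact 95% intervals for counting error; genes under 20 CPM in both libraries are not drawn, and dotted lines mark 2-fold. Bst2 is 3.30-fold higher in YAP5SA epithelium and lower in YAP5SA macrophages and endothelial cells, and Irf1 in the Yap knockout lies to the right of 1 in all 4 classes.

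Irf1 was the member higher in the most classes of the Yap knockout, while Bst2 was lower there in every class measured. Over all kept cells Irf1 was at 68.5 CPM in control, 53.2 CPM in YAP5SA and 106 CPM in Yap knockout, sums that also follow the mix of classes. It was higher in the Yap knockout than in control in 9 of 9 classes, and the interval excluded equality in 7, with ratios from 1.15 in interstitial cells of Cajal to 3.58 in endothelial cells. In fibroblasts it was at 80.7, 89.5 and 166 CPM, 2.06-fold higher in the Yap knockout (1.84 to 2.30). In enteric glia it was at 62.3, 53.8 and 130 CPM (2.08-fold, 1.53 to 2.88), and in smooth muscle at 62.7, 63.7 and 90.7 CPM (1.45-fold, 1.29 to 1.62).

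The nuclear RNA Malat1 moved in part with Irf1. Malat1 was at 1175 CPM in control, 1173 CPM in YAP5SA and 2319 CPM in Yap knockout over all kept cells. It was higher in the Yap knockout in 7 of 9 classes, by 2.70-fold in fibroblasts, 2.20-fold in smooth muscle and 2.05-fold in endothelial cells. In macrophages Malat1 was lower in the Yap knockout (ratio 0.792, 0.743 to 0.845) while Irf1 was higher, and in enteric glia Malat1 was 1.20-fold higher while Irf1 was 2.08-fold higher. Its part in these values was not tested. Genes that rise with handling (Fos, Fosb, Jun, Junb, Egr1, Ier2, Atf3 and Zfp36) summed to 4080, 3321 and 3204 CPM over all kept cells and to 3945, 2739 and 7544 CPM in enteric glia, and their part was not tested.

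**Figure D3:**
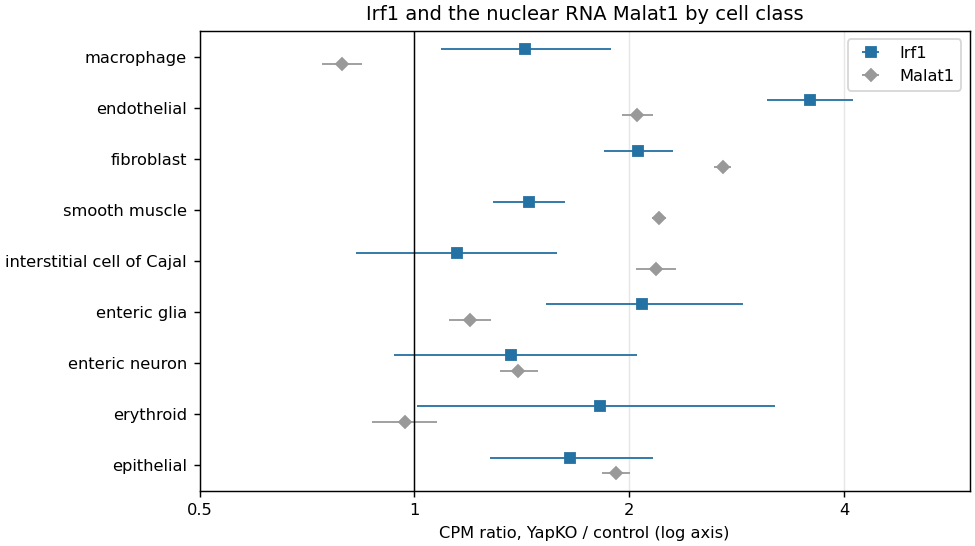
CPM ratio of Yap knockout (YapKO) to control (x axis, logarithmic) for Irf1 and for the nuclear RNA Malat1 in 9 cell classes (y axis), with exact 95% intervals for counting error. Irf1 lies above 1 in all 9 classes and farthest in endothelial cells at 3.58, while Malat1 lies below Irf1 in endothelial cells, macrophages, enteric glia and erythroid cells.

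The highest Irf1 ratio of the 9 classes was that of Yap knockout endothelial cells. Irf1 was at 124 CPM in control (176 cells), 139 CPM in YAP5SA (191 cells) and 443 CPM in Yap knockout (215 cells), 3.58-fold higher in the Yap knockout (3.12 to 4.12). Ifit1 was at 14.7, 13.3 and 43.5 CPM, 2.96-fold higher (1.96 to 4.57). It counted as measured only through the Yap knockout, and 51 of its 92 UMIs there lay in 5 cells. Ifit2 was at 2, 5 and 22 UMIs, 17 of the last in 5 cells. Isg15, Irf7 and Ifit3 showed no such shift: Isg15 was at 276, 197 and 313 CPM, Irf7 at 29.5, 30.6 and 30.3 CPM and Ifit3 at 4.14, 2.55 and 5.68 CPM. The Isg15 ratio to control of 1.13 (1.01 to 1.27) turned without the 5 cells richest in these genes (log2 ratio -0.020) and with free RNA subtracted (-0.011).

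The membrane proteins were lower there. Bst2 was at 606 CPM in control, 403 CPM in YAP5SA and 475 CPM in Yap knockout endothelium, with ratios of 0.665 in YAP5SA (0.608 to 0.727) and 0.784 in the Yap knockout (0.722 to 0.852). Ifitm3 was at 1292, 1445 and 1150 CPM, 1.12-fold lower in the Yap knockout (1.06 to 1.19), and its relative Ifitm2 at 1168 CPM in control and 860 CPM in Yap knockout. Of the 6 members measured in the Yap knockout comparison, 2 were at least 2-fold higher and 0 lower, where 6.21% of 7682 genes were higher and 4.15% lower. Of the 5 measured for YAP5SA, 0 passed 2-fold, where 2.87% of 7446 genes were higher and 1.80% lower. For the Yap knockout the median log2 ratio of all 8 was 0.20, against 0.06 for all genes, and -0.03 for YAP5SA, against 0.03. Without the 5 cells per library richest in Isg15, Ifit1, Ifit2, Ifit3 and Irf7, the Yap knockout median was -0.042.

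Several genes known as targets of interferon gamma were also higher in these cells. Of 12 listed interferon gamma inducible GTPases, which attack the vacuoles of intracellular microbes, 8 were measured and 7 of them at least 2-fold higher, with 0 lower. Of the 8, 4 reached 20 CPM only through the Yap knockout and so had to be higher; of the 4 that reached it in control, 3 passed 2-fold. Iigp1 was at 37.3 CPM in control and 153 CPM in Yap knockout, 4.11-fold higher (3.21 to 5.31), and Irgm1 at 50.7 and 163 CPM, 3.22-fold higher (2.59 to 4.03). The least changed were Igtp, 1.91-fold higher (1.34 to 2.75), and Ifi47, at 12.9 and 27.0 CPM. Their median log2 ratio over the 12 was 0.96, against 0.06 for all genes. In YAP5SA endothelium 0 of 5 measured passed 2-fold.

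Chemokines and class I regulators gave like values for single genes. Cxcl9, which draws T cells, was at 4.14 CPM in control and 73.4 CPM in Yap knockout endothelium, 17.7-fold higher (9.09 to 39.4), and Cxcl10 at 52.5 and 251 CPM, 4.79-fold higher (3.90 to 5.91). They were 2 of 3 measured chemokines, Cxcl9 measured only through the Yap knockout, and Ccl2 was at 21.6 and 19.4 CPM. Nlrc5, the activator of class I genes, was at 6.45 and 34.1 CPM, 5.29-fold higher (2.95 to 10.1), and the peptide transporter Tap1 2.06-fold higher (1.41 to 3.04). These were 2 of 12 measured genes of class I presentation, both measured only through the Yap knockout. The class I gene H2-D1 was lower, at 264 and 204 CPM, as was the proteasome activator Psme1, at 262 and 197 CPM. Over the 14 listed, the median log2 ratio was 0.11.

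Antiviral effectors were divided. Of 35 listed, 23 were measured, with 10 at least 2-fold higher and 2 lower. Of the 23, 5 reached 20 CPM only through the Yap knockout and 1 only through control, and of the 18 that reached it in control 6 were higher and 2 lower. Slfn5 was at 51.1 CPM in control and 157 CPM in Yap knockout, 3.06-fold higher (2.46 to 3.83), and Mndal, a nucleic acid binding protein of the Ifi200 family, at 17.5 and 50.6 CPM. The lower genes were Ifi27l2a at 58.0 and 26.0 CPM and Lgals3bp at 40.1 and 18.0 CPM. The median of the listed genes was 0.57. In the signal chain Jak2 was 2.61-fold higher (1.96 to 3.51) and Stat2 2.14-fold higher (1.67 to 2.76), 2 of 6 measured. The transcription factor Irf8 was at 35.0 and 129 CPM, 3.69-fold higher (2.85 to 4.83), and the RNA sensor Rigi 2.51-fold higher (1.76 to 3.64), the 1 of 5 measured sensors and adaptors past 2-fold. Receptors did not pass 2-fold: Ifnar1 was at 46.5 and 54.4 CPM, Ifnar2 at 93.0 and 103 CPM, Ifngr1 at 64.9 and 40.2 CPM and Ifngr2 at 23.9 and 19.4 CPM. Of 4 measured feedback inhibitors 0 passed 2-fold, and Socs1 was at 40.1 and 30.8 CPM.

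**Figure D4:**
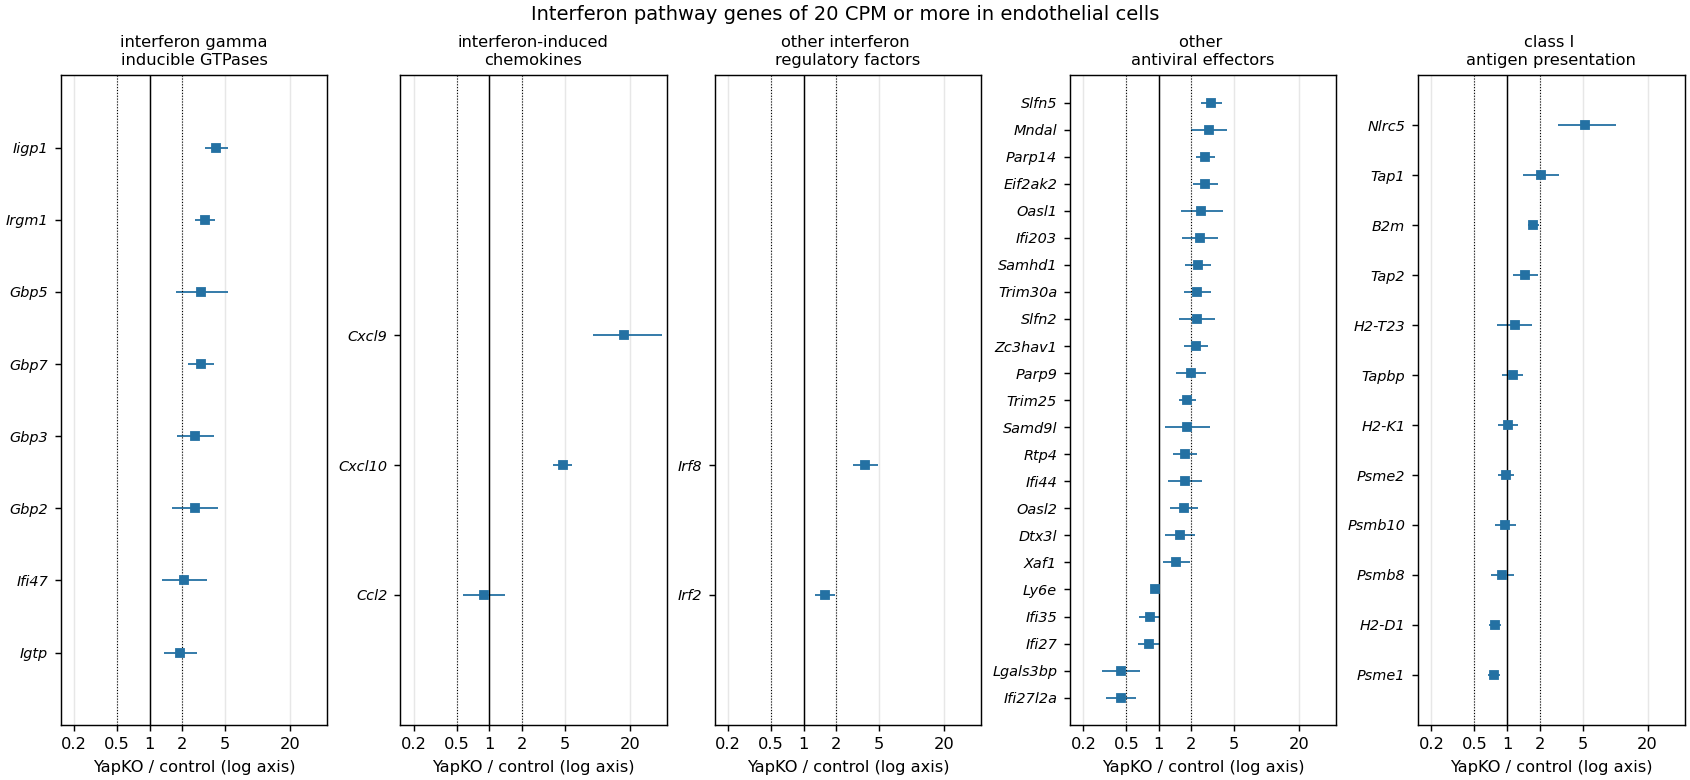
CPM ratio of Yap knockout (YapKO) to control endothelial cells (x axis, logarithmic) for the genes of 5 interferon pathway lists (y axis) that had at least 20 CPM in either library, with exact 95% intervals for counting error; dotted lines mark 2-fold. Of the 8 GTPases drawn, 7 lie at or past 2-fold higher, 4 of the 8 being measured only through the Yap knockout, while antiviral effectors and class I genes spread to both sides of 1.

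Shares of endothelial cells were counted for the same genes. A UMI of any of the GTPases was found in 72.1% of Yap knockout (65.6 to 78.0, exact Clopper-Pearson), 59.7% of control (52.0 to 67.0) and 50.8% of YAP5SA endothelial cells, so that the first pair of intervals overlapped, and 5 or more UMIs in 34.4%, 19.3% and 11.5%. Median depths were 7188, 8417.5 and 6016 UMIs, so the Yap knockout cells were not the deepest. Irf1 had any UMI in 63.3% of Yap knockout (56.4 to 69.7) and 54.5% of control cells (46.9 to 62.0), and 5 or more in 26.0% of Yap knockout, 9.66% of control and 11.0% of YAP5SA cells. Cxcl9 or Cxcl10 was found in 30.7% of Yap knockout cells, with 43.6% of their UMIs in 5 of the 215 cells. Without the 20 cells of each library with the most UMIs of the 3 lists, the ratios to control were 2.73 for Irf1, 2.79 for Irgm1 and 3.15 for Cxcl10, and 5 GTPases and 1 chemokine passed 2-fold.

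Endothelial subtypes differed between the libraries. A capillary-type cluster led by Plvap and Gpihbp1 held 107 control, 121 YAP5SA and 196 Yap knockout cells, an arterial-type cluster led by Gja5 and Gja4 held 70, 59 and 32, and a lymphatic-type cluster led by Ccl21a and Mmrn1 held 18, 37 and 0. Within the capillary-type cluster Irf1 was at 157 CPM in control, 170 CPM in YAP5SA and 481 CPM in Yap knockout. Iigp1 was at 59.6, 103 and 173 CPM, Cxcl10 at 76.3, 129 and 287 CPM and Cxcl9 at 7.55, 7.95 and 83.8 CPM in the same cells. The Yap knockout was thus highest for all 4 within 1 subtype, and YAP5SA stood between for Iigp1 and Cxcl10. Fibroblast markers in the endothelial class summed to 6638, 3151 and 872 CPM, macrophage markers to 160, 391 and 119 CPM and lymphoid markers to 5.5, 16.8 and 12.3 CPM, with 5, 3 and 3 of 9 lymphoid markers at 0. Scaled on the fibroblast markers, 34.98%, 33.29% and 23.47% of the UMIs of the class were attributed to other cells. That free RNA was subtracted only as an alternative, and the levels above are without the subtraction. The part of the macrophage and lymphoid markers was not tested.

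Yap knockout fibroblasts (377 cells) shared some of these values. Isg15 was 2.03-fold higher than control (1.66 to 2.46), but 68 of its 136 UMIs lay in 5 cells. Ifit1 and Ifit3 were both at 6.51 CPM, against 1.01 and 1.35 CPM in control, and all 16 UMIs of Ifit3 lay in 5 cells. Of 4 members measured 2 were at least 2-fold higher and 0 lower, where 4.65% of 7627 genes were higher and 1.25% lower. Over the 8 the median log2 ratio was 0.56, against 0.13 for all genes, and 0.13 without the 5 cells of each library richest in Isg15, Ifit1, Ifit2, Ifit3 and Irf7. Of the GTPases 3 were measured, all 3 only through the Yap knockout, so that they had to be higher, and all 3 passed 2-fold, with Irgm1 at 10.9 CPM in control and 60.2 CPM, and Iigp1 at 7.03 and 40.7 CPM. The chemokines Cxcl10 and Ccl2 were 2 of 2 measured, at 2.91-fold (2.53 to 3.34) and 2.36-fold (2.03 to 2.73). Of the Cxcl9 and Cxcl10 UMIs of these fibroblasts 53.6% lay in 5 cells, so Cxcl10 rests on few cells. Ifitm3 was 1.20-fold higher (1.11 to 1.29), but lower with trimmed-mean (TMM) scaling (log2 ratio -0.058). TMM moved the median log2 ratio of all genes by -0.28 in Yap knockout fibroblasts, -0.20 in all kept Yap knockout cells, 0.18 in Yap knockout macrophages and 0.12 in YAP5SA macrophages, and in the 4 classes and all kept cells it turned no other ratio whose interval excluded equality.

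Bst2 in the Yap knockout was lower in 7 of 7 classes measured, and the interval excluded equality in 6. It was farthest in interstitial cells of Cajal, at 160 CPM in control, 92.6 CPM in YAP5SA and 37.1 CPM in Yap knockout, 4.31-fold lower (2.81 to 6.89), on 25 UMIs in the Yap knockout. In smooth muscle it was at 97.4, 69.2 and 61.2 CPM and in enteric glia at 57.3, 76.6 and 28.4 CPM. Control thus stood highest in smooth muscle and interstitial cells of Cajal, and YAP5SA in enteric glia. Ifitm3 in the Yap knockout was lower in 7 of 9 classes, with an interval that excluded equality in 5. Isg15 in the classes low for it also varied: it was at 46.1, 49.8 and 11.8 CPM in enteric glia, 11.6, 19.9 and 7.59 CPM in smooth muscle and 13.7, 3.66 and 4.36 CPM in enteric neurons, on 19, 3 and 22 UMIs in the last.

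Interferon transcripts were at the edge of detection. Ifnb1 gave 25 UMIs in control, 26 in YAP5SA and 12 in Yap knockout over all kept cells, of which 19, 12 and 5 lay in macrophages. Ifng, the gamma interferon made by lymphocytes, gave 3, 2 and 7 UMIs in 3, 2 and 4 cells. Ifne gave 2, 0 and 4 UMIs, Ifnk 1, 6 and 2, and Ifnl2 1, 1 and 3. The macrophage UMIs of Ifnb1 lay in 10 of 312 macrophages in control, 8 of 821 in YAP5SA and 3 of 251 in Yap knockout. Control macrophages thus held the most Ifnb1 UMIs, although YAP5SA had more macrophages. Whether Ifnb1 differed between libraries was not tested. The other interferons had too few UMIs to compare libraries.

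Cells with several of these transcripts at once were rare and mostly macrophages and endothelial cells. UMIs of at least 3 of Isg15, Ifit1, Ifit2, Ifit3 and Irf7 were found in 50 of 6959 control cells (0.718%), 95 of 8518 YAP5SA cells (1.11%) and 50 of 4890 Yap knockout cells (1.02%). Among macrophages the control share was 8.65%, that of YAP5SA 7.07% and that of the Yap knockout 5.58%, and among endothelial cells 7.95%, 5.76% and 10.2%. The intervals of the libraries overlapped in both classes. In smooth muscle, enteric neurons, enteric glia and interstitial cells of Cajal there were 0 such cells, which allows up to 0.391% of the 767 control smooth muscle cells. They were also deeper, at medians of 11274.5, 8082 and 12576.5 UMIs against 4900, 5224.5 and 4979.5, and the part of depth was tested only by thinning: at 2000 UMIs 2 or more of the 5 genes were seen in 15.1% of control macrophages, 6.71% of control endothelial cells and 0.513% of control fibroblasts.

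**Figure D5:**
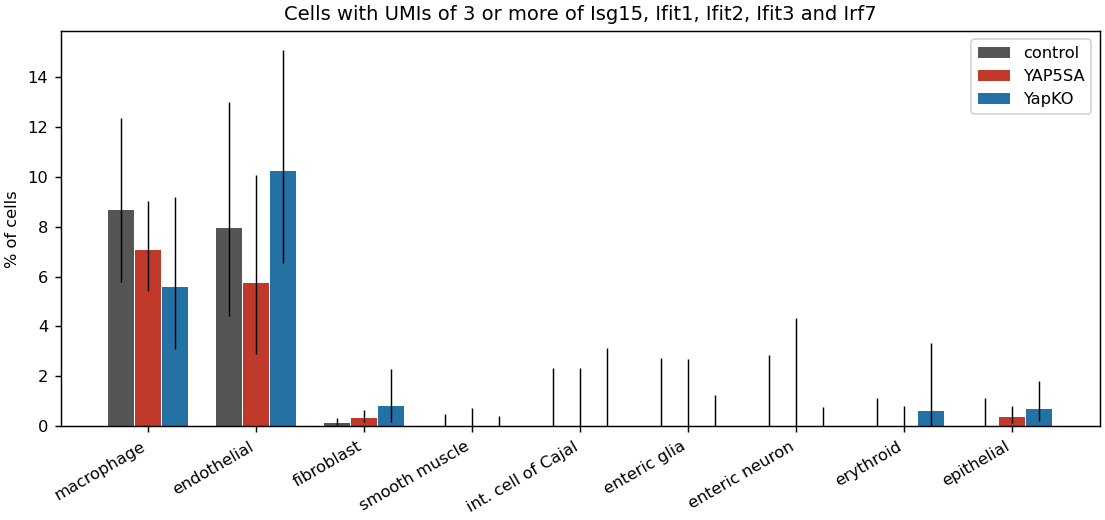
Percent of cells (y axis) with UMIs of at least 3 of Isg15, Ifit1, Ifit2, Ifit3 and Irf7 in 9 cell classes (x axis) of the 3 libraries (YapKO is the Yap knockout); bars are unthinned shares in 1 library and black lines exact 95% Clopper-Pearson intervals. Macrophages at 5.58% to 8.65% and endothelial cells at 5.76% to 10.2% stand above the other classes.

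Joint detection within cells differed by pair. At 2000 UMIs per cell, Isg15 was seen in 29.3% of control cells with Irf7 and in 6.88% of those without it, in 45.6% and 9.27% in YAP5SA, and in 35.0% and 6.10% in Yap knockout. Bst2 was seen in 39.5% of control cells with Isg15 and 11.9% without. Irf1 was seen in 13.5% of control cells with Isg15 and 11.4% without, in 11.0% and 10.7% in YAP5SA, and in 22.9% and 15.1% in Yap knockout. Irf1 was thus nearly as frequent in cells without Isg15 as in those with it in control and YAP5SA. The rare Ifit2 was also apart in control, where Isg15 was seen in 8.33% of the 24 cells with Ifit2 and 7.61% of those without. Cell classes are mixed in these shares, and cells of 1 library are not replicates.

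Levels were also compared across class sums. Over 32 sums of class and library, the mean log2 level of Isg15, Ifit1, Ifit2, Ifit3 and Irf7 had a Pearson r of 0.778 with Bst2, 0.697 with Ifitm3 and 0.187 with Irf1. For single genes, Irf1 had 0.008 with Irf7 and 0.074 with Isg15 but 0.552 with Ifit1, 0.503 with Ifitm3 and 0.452 with Ifit2, and Ifit2 had 0.129 with Ifitm3 and 0.285 with Bst2. The 5 genes outside the members most like that mean, among 12729, were the GTPase Gbp3 (0.906), the kinase Fes (0.904), Gngt2 (0.903), and the antiviral genes Parp14 and Trim30a (0.889 each). The genes most like Ifitm3 were Furin (0.920), Tnfrsf1a (0.919), Icam1 (0.894), Adgre5 (0.890) and Ripk3 (0.869). Those most like Bst2 were Tmem140 (0.902), Tpst2 (0.885), Ripk3 and Tgfb1 (0.878 each) and Serinc3 (0.876). Irf1 was most like Clk1 (0.876), Sntb2 (0.872), Rps6ka3 (0.865), Hip1 (0.863) and Rdx (0.853). The sums of a library share its depth and free RNA, and these correlations are descriptions.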

How the data were processed

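Each library was made from trypsin-digested hindstomach with the DNBelab C Series 3′ kit, per the labels' protocols. The deposited values are raw counts, that is whole UMIs for each gene in each cell. Per the file headers PISA 1.0 wrote them, and the submitters' processing notes name STAR and the GRCm39 build. No normalisation and no free-RNA correction is stated, the annotation release and strand setting are not stated in the labels, and the deposited cells have at least 1000 UMIs.

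Cells with at least 500 genes and at most 20% mitochondrial UMIs passed (7372, 9029 and 5201). Scrublet (scanpy 1.11.5) called 0 doublets by its own threshold, so it had not worked, and the highest 6% of scores were removed instead. Each kept cell was scored for each marker list (mean of log-scaled levels over the 99.5th percentile) and took the class with the highest score, given at least 3 markers with a UMI and a margin of 0.1. These limits were set after the data had been seen. In all, 1309 control, 1573 YAP5SA and 1359 Yap knockout cells had no class. They were shallower, with median depths of 3204, 3306 and 2402 UMIs. Class sums of at least 50 cells were scaled to CPM with exact 95% Poisson intervals, ratios have exact conditional intervals, and shares are Clopper-Pearson. A gene of 20 CPM in either library counted as measured. Log2 ratios add 5 CPM (10 CPM in correlations). A count of 0 was bounded by 3 UMIs. Between libraries 2409, 1388 and 1528 cell names coincided, but names are serial numbers, and 0 of these cells had the same UMI and gene totals.

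The genes and lists were chosen with earlier results of these data known. From each list at most 2 genes at the top and 2 at the bottom of the ratios could be named, and any receptor or ligand. The summing and calling steps were tested on simulated data. The tools were igraph 0.11.9 (Leiden clusters), edgeR 4.0.16 in R 4.3.3 (TMM factors), scipy 1.17.1 (intervals), numpy 2.4.6, pandas 2.3.3 and matplotlib 3.10.9 under Python 3.11.15. Alternatives were TMM scaling, totals without mitochondrial, ribosomal and haemoglobin genes, 1 CPM added, measured genes only, thinned cells, doublets kept, at most 10% mitochondrial UMIs, a stricter gate, clusters as classes and free RNA subtracted.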

Additional observations from a re-analysis of the deposited data

Results flagged for a closer look

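For Bst2 and Isg15, the ratio to control was at least 1.5-fold higher in some cell class and at least 1.5-fold lower in another of the same library, each with an interval that excluded equality. Bst2 in YAP5SA had a ratio to control of 3.30 in epithelial cells and 0.579 in interstitial cells of Cajal. Isg15 in the Yap knockout had a ratio of 2.03 in fibroblasts and 0.229 in erythroid cells. In control erythroid cells 212 of the 463 Isg15 UMIs lay in 5 cells. A cluster led by Ahsp and Slc4a1, with Isg15 at 237 CPM in YAP5SA, held 22 control and 1 Yap knockout cells of any class. Within the cluster led by Hba-a1 and Hbb-bt, Isg15 was at 86.9 CPM (74.9 to 100) in control. It was at 46.4 CPM (32.9 to 63.7) in the Yap knockout there, so these libraries lay closer than in the class. The differences between classes were not tested, since each genotype is 1 library.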

How the results depend on the processing

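Of 672 member ratios recomputed under alternatives, 618 stayed within counting error, 47 moved beyond it and 7 turned. By this rule a ratio with 0 UMIs in a library could not move, and one with a wide interval hardly could. A ratio could turn only where its main interval excluded equality. The 618 therefore include Ifit values that could hardly be labelled otherwise. The turned log2 ratios were, for the Yap knockout, Ifitm3 in fibroblasts with TMM scaling (-0.058), Ifit3 in fibroblasts without the 5 richest cells (-0.026), Ifitm3 in macrophages with a stricter gate of 4 markers and a margin of 0.2 (-0.122), and Isg15 in endothelial cells without the 5 richest cells (-0.020) and with free RNA subtracted (-0.011). For YAP5SA, Ifitm3 in macrophages turned by clusters (-0.084) and with free RNA subtracted (-0.022). The median log2 ratio of the 8 genes moved over all kept cells from 0.15 to 0.28 in YAP5SA with 1 CPM added, and from 0.03 to -0.10 in the Yap knockout with TMM scaling. In YAP5SA fibroblasts it moved from 0.21 to 0.64 over the genes of at least 20 CPM only. The count of chemokines in Yap knockout endothelium was 1 without 20 cells. Leaving out richest cells, the endothelial alternatives and the pathway counts were added after the data had been seen. No paired analysis was possible because each genotype has 1 library. Depth limits Ifit1, Ifit2, Ifit3 and the interferons most, with few UMIs in most classes.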

Other observations

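Some classes had enough cells in only part of the libraries and so entered no comparison. Monocyte or dendritic cells held Ifitm3 at 805 CPM in YAP5SA (72 cells) and 1586 CPM in Yap knockout (63 cells), Isg15 at 200 and 274 CPM, and Bst2 at 231 and 289 CPM. Pericytes, the contractile cells on capillaries, held Ifitm3 at 1309 CPM, Isg15 at 200 CPM and Irf1 at 148 CPM in YAP5SA (77 cells). Neutrophils in YAP5SA (175 cells) held Ifitm3 at 806 CPM and Isg15 at 236 CPM, at a median depth of 1790 UMIs. Control mesothelial cells (89 cells) held Ifitm3 at 396 CPM, Irf1 at 84.5 CPM and Isg15 at 16.0 CPM.

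Macrophage subsets differed in Ifitm3. In the Pf4 and C1qa cluster it was at 648 CPM in control, 678 CPM in YAP5SA and 628 CPM in Yap knockout. In the Arg1 and Lyz2 cluster it was at 1145 CPM in YAP5SA and 2979 CPM in Yap knockout (94 cells).

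Isg15 in erythroid cells was at 181 CPM in control, 216 CPM in YAP5SA and 41.5 CPM in Yap knockout. All genes measured in the class had a median log2 ratio to control of 0.64 in YAP5SA, above the 0.249 of Isg15. Most YAP5SA cells of the class lay in the cluster led by Ahsp and Slc4a1. Most control and Yap knockout cells lay in the cluster led by Hba-a1 and Hbb-bt.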
